A study of Homo sapiens with 6 samples.

Results

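TXNIP, its arrestin-domain relatives, the thioredoxins and the MondoA/MLX transcription factors were examined in human HEK293 cells that had been grown beside cells producing reactive oxygen species (ROS). The group was chosen by gene name, with earlier results of these data known. It held TXNIP, ARRDC1, ARRDC2, ARRDC3, ARRDC4, TXN, TXN2, MLXIP, MLXIPL and MLX, which is 10 of the 23686 genes in the count files. HEK293 is an established line from human embryonic kidney, and the cells sampled in either group expressed green fluorescent protein (GFP), by which they were sorted. The co-culture group consisted of 3 libraries from cells kept with HEK293 cells carrying DAAO, a D-amino acid oxidase that makes hydrogen peroxide, in the presence of 25 µM D-alanine for 10 h. The control group consisted of 3 libraries of sorted GFP-positive cells, labelled as wild-type controls. The labels give the same treatment text for all 6 samples, so whether the controls received D-alanine or partner cells is not given in the sources used here. Cells of all groups were grown in high-glucose DMEM with fetal bovine serum. The labels do not say whether the libraries of a group came from separate cultures or clones, so p-values measure the spread between these samples, which may be technical.

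Thioredoxins are small proteins that reduce disulfide bonds in other proteins and are themselves recycled by thioredoxin reductases with NADPH. TXNIP binds reduced thioredoxin and limits its activity, and it also lowers glucose uptake by promoting internalisation of glucose transporters. TXNIP and ARRDC1 to ARRDC4 are alpha-arrestins, adaptor proteins that link membrane cargo to ubiquitin ligases of the NEDD4 family, and of these TXNIP is the member known for binding thioredoxin. The TXNIP gene is a well-known target of MondoA (encoded by MLXIP) and ChREBP (encoded by MLXIPL), which act as dimers with MLX when glucose metabolites accumulate, and ARRDC4 is a further target of the same factors.

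Reads on the reverse strand assigned to genes numbered 19091085 to 36250314 per library, and all 10 genes passed the filter on low counts. Levels are given as CPM, the read count relative to library size, with libraries scaled by trimmed means of M-values (TMM). The 7 HEK293 markers examined were present in every library, from 5.8 CPM for PAX2 to 1320 CPM for VIM. The blood, endothelial and liver markers PTPRC, CD3E, PECAM1, CDH5 and ALB had at most 5 reads in any library, while the collagens COL1A1 and COL3A1, markers of fibroblasts, had 31 to 44.4 and 2.23 to 9.3 CPM. Control 1 stood apart from the other controls for several of the genes described here, so each of the 10 genes is also given without it. The libraries also differed in the median share of forward-strand reads per gene, which was 0.124% and 0.211% in co-culture libraries 2 and 3 and 1.57% to 1.76% in the other 4. This strand class was also entered as a term, which leaves co-culture library 1 to be compared with the 3 controls, and values from that fit are given for all 10 genes.

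The stretches of 250 bases upstream of annotated starts are shown for the genes on which the results turn, namely ARRDC3, TXNIP and ARRDC4. With all libraries, ARRDC3 was the only 1 of the 10 genes with an edgeR adjusted p under 0.05. TXNIP and ARRDC4 are the targets of MondoA and ChREBP. The sequences are those of RefSeq (GRCh38.p14). The table held 12 such windows for 9 of the 10 genes, and TXN2 had no entry. Each is printed 5′ to 3′ on the strand of its gene, with matches to 4 motifs in capitals. The motifs, searched on both strands, were the E-box CACGTG, a pair of E-box-like sites (CACGNG, any 5 bases, CACGNG), the forkhead core GTAAACA and the antioxidant-response core TGACNNNGC. An E-box lying in a pair would match 2 of them.
TXNIP upstream of the distal start: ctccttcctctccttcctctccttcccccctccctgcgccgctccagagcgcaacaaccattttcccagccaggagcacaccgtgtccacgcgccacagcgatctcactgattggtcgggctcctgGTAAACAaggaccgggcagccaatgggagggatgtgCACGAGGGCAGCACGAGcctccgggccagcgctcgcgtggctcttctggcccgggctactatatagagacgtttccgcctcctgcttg
TXNIP upstream of the proximal start: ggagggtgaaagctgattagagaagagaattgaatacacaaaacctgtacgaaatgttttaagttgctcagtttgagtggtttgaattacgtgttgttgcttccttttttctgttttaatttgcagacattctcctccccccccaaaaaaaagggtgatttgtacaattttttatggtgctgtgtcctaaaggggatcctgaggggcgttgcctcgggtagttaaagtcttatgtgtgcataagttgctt
ARRDC4 upstream: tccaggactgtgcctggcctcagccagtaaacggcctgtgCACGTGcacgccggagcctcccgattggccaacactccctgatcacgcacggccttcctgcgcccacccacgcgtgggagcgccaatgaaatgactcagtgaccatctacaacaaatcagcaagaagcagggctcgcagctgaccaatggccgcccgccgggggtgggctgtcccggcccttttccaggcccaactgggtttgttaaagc
ARRDC3 upstream of the distal start: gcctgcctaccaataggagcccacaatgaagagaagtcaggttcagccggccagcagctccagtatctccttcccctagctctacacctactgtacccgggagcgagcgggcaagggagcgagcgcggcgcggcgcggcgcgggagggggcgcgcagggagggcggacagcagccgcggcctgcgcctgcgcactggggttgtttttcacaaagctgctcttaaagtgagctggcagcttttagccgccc
ARRDC3 upstream of the proximal start: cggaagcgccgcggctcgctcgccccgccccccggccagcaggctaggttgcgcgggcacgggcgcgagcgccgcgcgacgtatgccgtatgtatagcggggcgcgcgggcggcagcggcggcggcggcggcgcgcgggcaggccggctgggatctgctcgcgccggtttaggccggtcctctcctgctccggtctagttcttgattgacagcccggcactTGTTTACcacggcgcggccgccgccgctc
The TXNIP windows lie at chr1:145996580-145996829 and chr1:145995745-145995994 on the minus strand and that of ARRDC4 at chr15:97960453-97960702 on the plus strand. The ARRDC3 windows lie at chr5:91383318-91383567 and chr5:91380098-91380347, both on the minus strand. The distal TXNIP window held the E-box-like pair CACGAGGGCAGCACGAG at positions -88 to -72 from the start, a form found in 16 of 35116 windows of the same length (0.0456%). This motif was searched because such pairs are known from the TXNIP promoter, so the match describes the sequence and tests nothing. ARRDC4 held an E-box at -210 to -205, as did MLX at -50 to -45, and 6.34% of all windows hold this motif. The proximal TXNIP window and the distal ARRDC3 window matched none of the 4 motifs. A forkhead core was present in the distal TXNIP window at -124 to -118 and in the proximal ARRDC3 window at -29 to -23, against 2.98% of all windows. The antioxidant-response core was found in 1 of the 12 windows, belonging to ARRDC2, against 10.9% of all windows.

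ARRDC3, an alpha-arrestin known for promoting the ubiquitination of beta-adrenergic receptors and integrin beta 4, rose in co-culture. Its level was 9.5, 9.7 and 10.9 CPM in controls 1, 2 and 3 and 19.7, 19.2 and 16.7 CPM in co-culture libraries 1, 2 and 3. All co-culture libraries were higher than all controls, and the gap between the groups was wider than the spread within either. The means were 10.0 ± 0.753 and 18.5 ± 1.62 CPM (SD, n = 3 each), a 1.84-fold difference. On the log2 scale this was 0.88 (SE 0.11, 95% interval 0.64 to 1.11), and edgeR's quasi-likelihood test gave an adjusted p of 0.0021. These values rest on 186 to 284 reads per control and 394 to 597 reads per co-culture library. In a bulk sample, more RNA per cell and more cells expressing the gene cannot be told apart.

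ARRDC3 was the only 1 of the 10 genes with an edgeR adjusted p under 0.05, against 704 of 14582 genes (4.83%) in the whole table, of which 2.66% of all tested were higher and 2.17% lower. It was also the only 1 of the 10 whose groups did not overlap, as was true of 29.3% of all tested genes. Its call was kept in all 14 alternative fits, with log2 fold changes from 0.83 to 0.97 and edgeR, DESeq2 or limma-voom adjusted p-values from 2.76e-08 to 0.0471. With the strand class as a term the log2 fold change was 0.97 (edgeR adjusted p 0.0471), and without control 1 it was 0.83 (edgeR adjusted p 4.16e-05). The share of all tested genes called was 0.199% with the strand class and 1.12% with the replicate number as a block. It was 7.08% in DESeq2, 4.43% in limma-voom, 4.86% with DESeq2-type size factors, 6.05% with total-count scaling, 4.5% with no filter and 4.46% with counts of both strands. Without co-culture library 1, 2 or 3 it was 0.831%, 0.503% and 2.18%, and without control 1, 2 or 3 it was 20.8%, 0.44% and 5%.

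**Figure D1:**
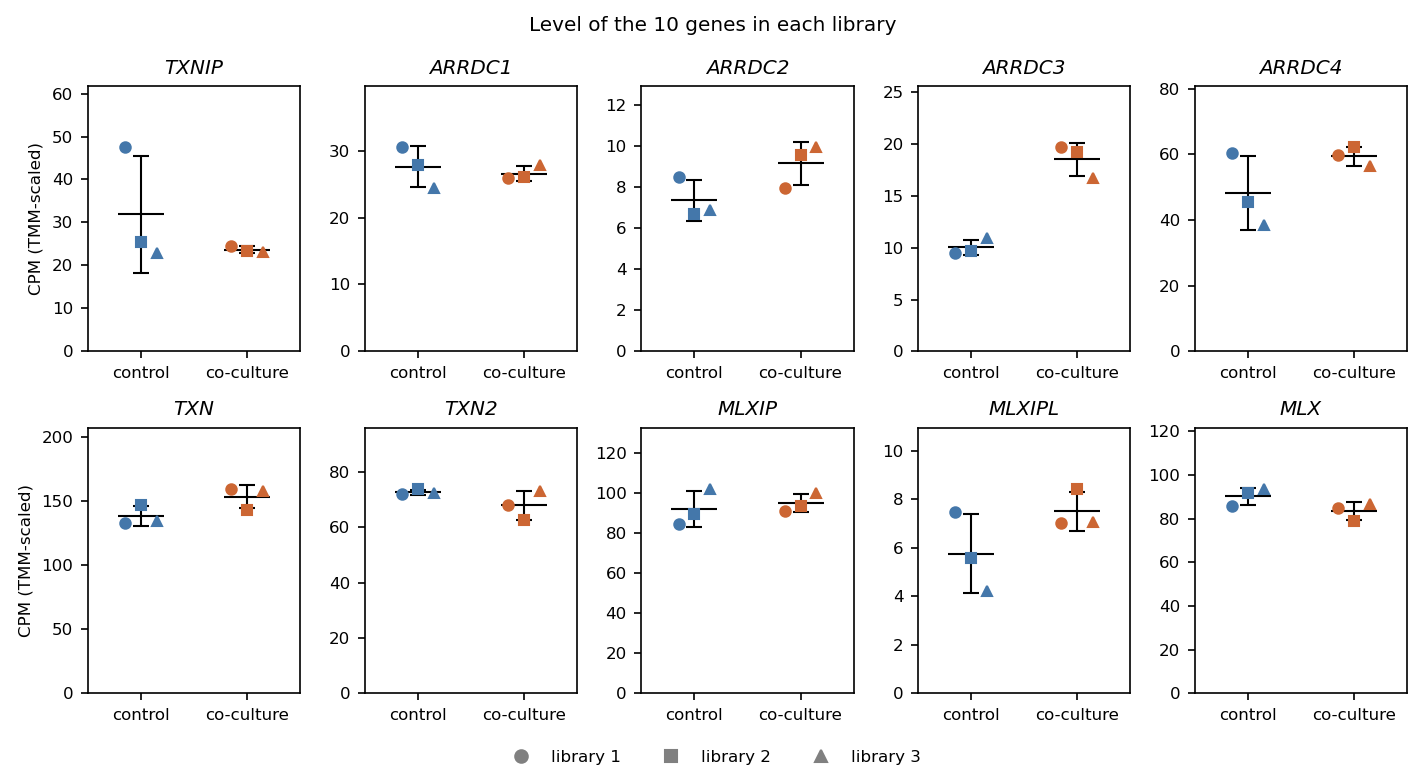
TMM-scaled CPM (vertical axes, from 0) of the 10 genes in each library, by group; marker shape gives the library number, and the horizontal line and bars give the group mean and SD. For ARRDC3 the co-culture libraries sit at 16.7 to 19.7 CPM, above all controls, and for TXNIP control 1 sits at 47.5 CPM, above the other 5 libraries.

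The antisense transcript ARRDC3-AS1, counted as a gene of its own and named here after its values were seen, had 2.43, 2.45 and 2.22 CPM in the controls and 3.85, 2.57 and 3.35 CPM in co-culture. The groups did not overlap, as was true of 29.3% of all tested genes, and the libraries held 47 to 120 reads of this transcript. Its log2 fold change of 0.46 (SE 0.20) had an edgeR adjusted p of 0.202. Of all reads over ARRDC3, 1.58% were from the forward strand, and counting without regard to strand gave ARRDC3 a log2 fold change of 0.86 (edgeR adjusted p 0.00235).

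The other arrestin-domain genes did not pass the threshold with all 6 libraries. ARRDC4, which like TXNIP is induced by glucose and has been linked to lower glucose uptake, had 60.6, 45.5 and 38.6 CPM in controls 1, 2 and 3 and 59.8, 62.2 and 56.5 CPM in co-culture. Control 1 lay within the co-culture range and controls 2 and 3 lay below it. The log2 fold change was 0.30 (SE 0.14, 95% interval -0.02 to 0.63, edgeR adjusted p 0.241). Without control 1 it was 0.50 with an SE of 0.07 (edgeR adjusted p 0.000182), and without control 3 it was 0.16 (edgeR adjusted p 0.402).

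ARRDC2, a less studied alpha-arrestin, had 8.49, 6.68 and 6.9 CPM in the controls and 7.96, 9.55 and 9.94 CPM in co-culture. The groups overlapped through control 1 and co-culture library 1. The log2 fold change of 0.32 (SE 0.14) had an edgeR adjusted p of 0.204, and without control 1 it was 0.44 (edgeR adjusted p 0.0226). With the strand class as a term ARRDC2 stood at 0.11 (edgeR adjusted p 0.856). ARRDC1, which recruits ESCRT proteins to release small vesicles from the plasma membrane, had 24.4 to 30.5 CPM in the controls and 25.9 to 27.8 CPM in co-culture. Its log2 fold change was -0.05 (95% interval -0.25 to 0.15), and 0.03 without control 1 (edgeR adjusted p 0.796). ARRDC5 had 0 reads in all 6 libraries, which allows up to 0.0838 to 0.156 CPM depending on the library, for counting error only.

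The share of each gene within the ARRDC family does not depend on scaling between libraries. Relative to exon length, ARRDC3 made up 5.78%, 6.96% and 8.73% of the summed level of ARRDC1 to ARRDC4 in the controls and 12.3%, 11.6% and 10.3% in co-culture. The share of ARRDC3 was higher in every co-culture library than in every control, with means of 7.16% ± 1.49 and 11.4% ± 1.01 (SD, n = 3 each). The exact two-sided permutation p was 0.1, the smallest that 3 against 3 libraries can give, and 0.133 after Benjamini-Hochberg adjustment over the 4 within-library ratios computed, which were chosen after the values were seen. The share of ARRDC4 was 31.8% to 37.9% in the controls and 35.7% to 38.7% in co-culture, and these ranges overlapped (exact permutation p 0.2).

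**Figure D2:**
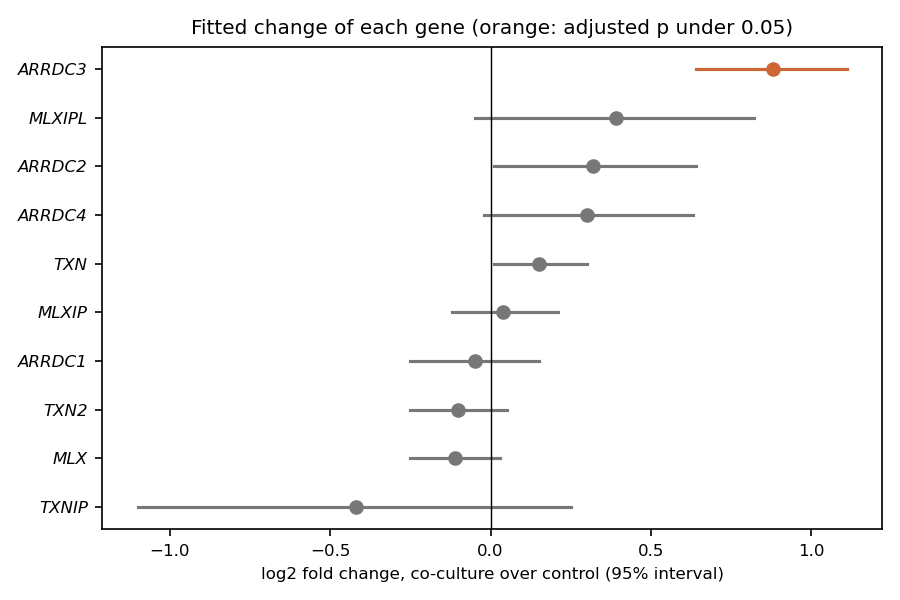
Log2 fold change of co-culture over control (horizontal axis) for each of the 10 genes, with the 95% interval of the edgeR fit; orange marks an adjusted p under 0.05. ARRDC3 lies at 0.88 with an interval from 0.64 to 1.11, and the interval of TXNIP is the widest, from -1.10 to 0.25.

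TXNIP itself did not differ beyond the spread of the controls. It had 47.5, 25.4 and 22.8 CPM in controls 1, 2 and 3 and 24.6, 23.3 and 23.2 CPM in co-culture libraries 1, 2 and 3. Control 1 was 1.97 times the mean of controls 2 and 3, and the co-culture mean was 0.983 times that mean. With all libraries the log2 fold change was -0.42 (SE 0.28, 95% interval -1.10 to 0.25, edgeR adjusted p 0.42). Without control 1 it was -0.02 with an SE of 0.08 (edgeR adjusted p 0.874), and without control 3 it was -0.62 (edgeR adjusted p 0.28). Under the 14 alternatives the TXNIP adjusted p ran from 0.28 to 0.874.

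The genes nearest to TXNIP in profile were picked for that likeness, so their high level in control 1 follows from the choice. The 5 genes whose profile over the 6 libraries was most like that of TXNIP, by the root-mean-square difference of log2 CPM centred on each gene's mean, were HELZ2, CRABP2, PKNOX2, SULF1 and RGS16, at differences of 0.0717, 0.0881, 0.0924, 0.0933 and 0.0998. HELZ2, a nuclear receptor coactivator, had 45.5 CPM in control 1 and 22.8 to 27.1 CPM in the other 5 libraries. CRABP2, a carrier of retinoic acid, had 43.3 CPM in control 1 and 20.3 to 27.3 CPM elsewhere. RGS16, an inhibitor of G-protein signalling, stood at 22.9 CPM there against 12.5 to 14.1 CPM. These profiles share the libraries and the scaling, and none of the other 9 genes described here was among the 5.

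**Figure D3:**
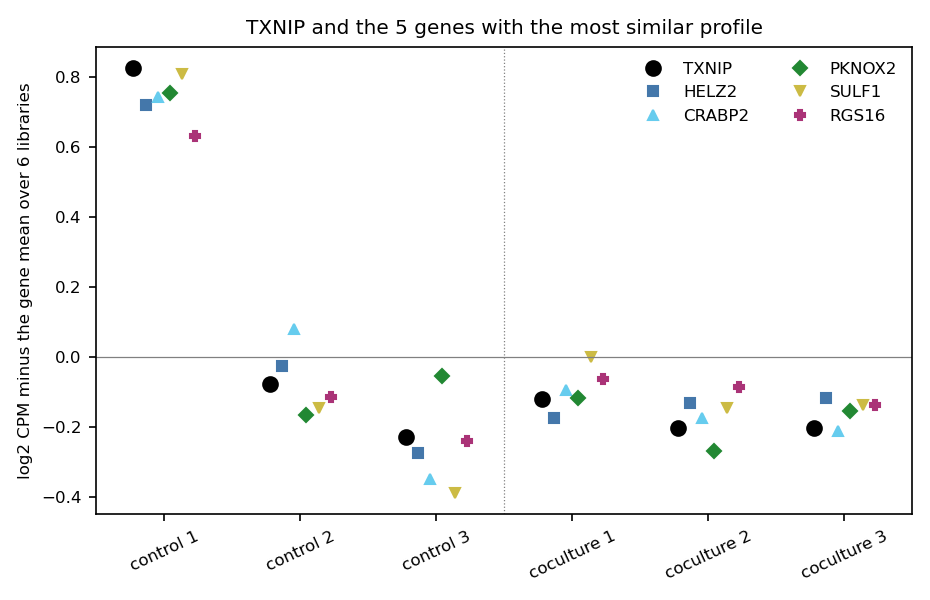
Log2 CPM minus each gene's mean over the 6 libraries (vertical axis) for TXNIP and the 5 genes with the most similar profile, by library (horizontal axis; the dotted line separates controls from co-culture). All 6 genes are highest in control 1, where TXNIP has 47.5 CPM against 22.8 to 25.4 CPM in the other libraries.

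Control 1 did not deviate in the same way for all 10 genes. Against the mean of controls 2 and 3 its level was 1.53 times as high for MLXIPL, 1.44 times for ARRDC4, 1.25 times for ARRDC2 and 1.17 times for ARRDC1. For ARRDC3, TXN, TXN2, MLXIP and MLX the ratio lay between 0.884 and 0.987. Without control 1, 4 of the 10 genes had an edgeR adjusted p under 0.05, all higher in co-culture, namely ARRDC3, ARRDC4, ARRDC2 and MLXIPL. The background also rose in that fit, to 3069 of 14734 genes (20.8%). Why control 1 differs was not tested.

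Neither thioredoxin passed the threshold. TXN, the cytosolic and nuclear thioredoxin, had 133, 147 and 134 CPM in the controls and 159, 143 and 158 CPM in co-culture. Co-culture library 2 fell below control 2, and the other co-culture libraries were above all controls. The log2 fold change of 0.15 (SE 0.07, 95% interval 0.01 to 0.30) had an unadjusted p of 0.0434 and an edgeR adjusted p of 0.201. TXN2, the mitochondrial thioredoxin, had 72, 73.7 and 72.3 CPM in the controls and 68, 62.7 and 73 CPM in co-culture. Its log2 fold change was -0.10 (SE 0.07, 95% interval -0.25 to 0.05, edgeR adjusted p 0.426). Without control 1, TXN stood at 0.13 (edgeR adjusted p 0.137) and TXN2 at -0.10 (edgeR adjusted p 0.28).

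The thioredoxins were also compared within each library, by ratios chosen after the values were seen. The number of TXN reads per TXN2 read was 1.85, 2.00 and 1.86 in the controls and 2.34, 2.29 and 2.16 in co-culture, so that every co-culture library exceeded every control. For single genes, the groups did not overlap in 29.3% of all tested. The means were 1.90 ± 0.0846 and 2.26 ± 0.0911 (SD, n = 3 each; exact permutation p 0.1, adjusted 0.133). TXNIP reads per 100 TXN reads numbered 35.7, 17.3 and 17 in the controls and 15.5, 16.2 and 14.7 in co-culture (exact permutation p 0.1, adjusted 0.133). Control 1 stood far above the rest, and controls 2 and 3 were also above every co-culture library (exact permutation p 0.2 without control 1).

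Among the transcription factors, MLXIP (MondoA), which shuttles from mitochondria to the nucleus with glucose metabolism, had 84.7, 89.4 and 102 CPM in the controls and 91.3, 93.8 and 99.9 CPM in co-culture. The co-culture values lay within the control range, and the log2 fold change was 0.04 (95% interval -0.12 to 0.21, edgeR adjusted p 0.769), or -0.01 without control 1 (edgeR adjusted p 0.902). MLXIPL (ChREBP), best known from liver and fat, was the lowest of the 3, at 7.48, 5.58 and 4.22 CPM in the controls and 7.01, 8.41 and 7.07 CPM in co-culture. Control 1 again lay within the co-culture range and controls 2 and 3 below it. The difference of 0.39 on the log2 scale (SE 0.20, edgeR adjusted p 0.266) became 0.62 without control 1 (edgeR adjusted p 0.00809) and 0.19 without control 3 (edgeR adjusted p 0.539).

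MLX, the shared dimer partner, had 85.8, 91.5 and 93.4 CPM in the controls and 84.7, 78.8 and 86.8 CPM in co-culture. Its log2 fold change was -0.11 (SE 0.06, 95% interval -0.25 to 0.03, edgeR adjusted p 0.312), and -0.15 without control 1 (edgeR adjusted p 0.0699). Of all reads over MLX, 26.1% were from the forward strand, from 25.3% to 27.0% per library, against at most 7.93% for any other of the 10 genes over all libraries. That share of MLX was alike in both groups and in both strand classes. With the strand class as a term, TXNIP stood at -0.37, ARRDC1 at -0.09, ARRDC4 at 0.31, TXN at 0.20, TXN2 at -0.10, MLXIP at -0.01, MLXIPL at 0.29 and MLX at -0.09 on the log2 scale (edgeR adjusted p 0.439 to 0.976).

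**Figure D4:**
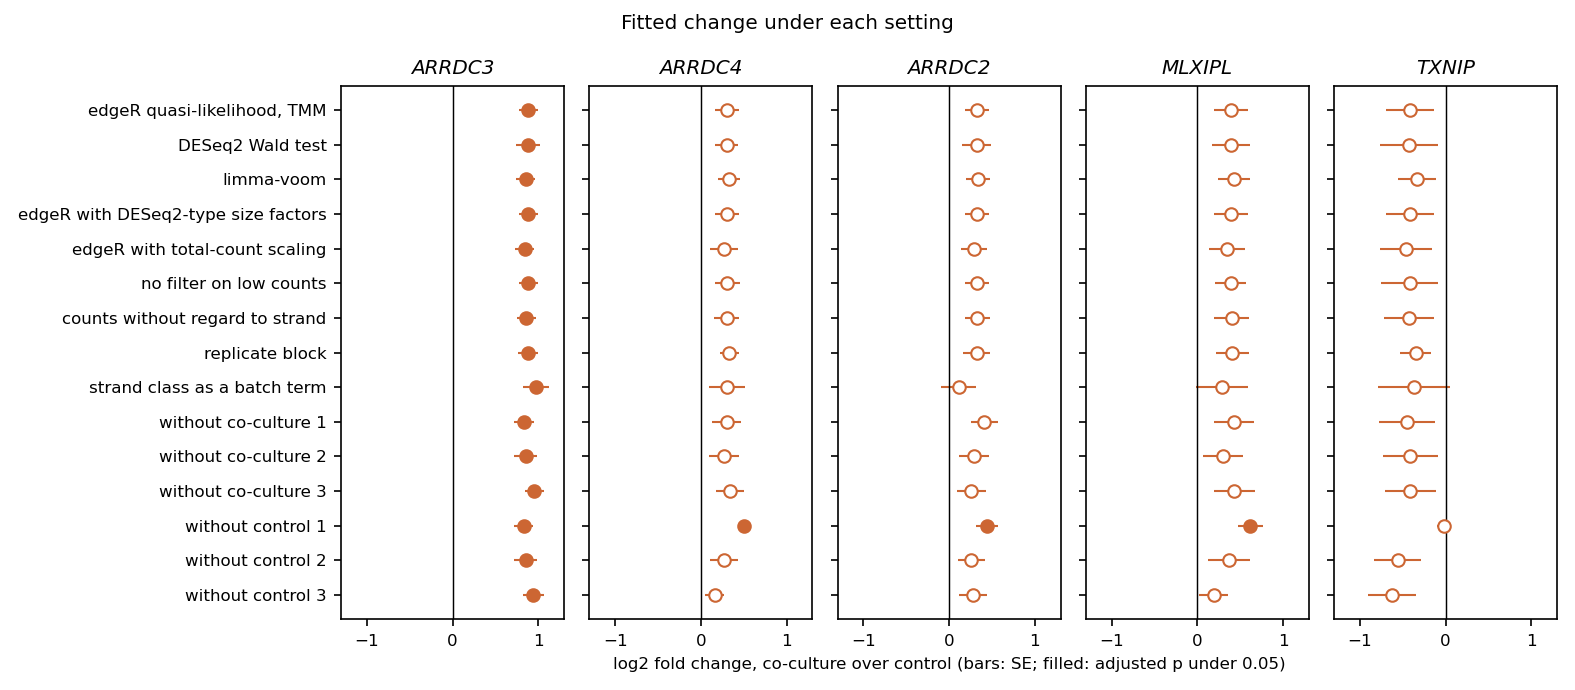
Log2 fold change of co-culture over control (horizontal axes, bars: SE) of ARRDC3, ARRDC4, ARRDC2, MLXIPL and TXNIP in the main fit (top) and the 14 alternatives; filled points have an adjusted p under 0.05. ARRDC3 is filled throughout, from 0.83 to 0.97, while ARRDC4, ARRDC2 and MLXIPL are filled only in the fit without control 1, where TXNIP lies at -0.02.

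The levels of the 10 genes were compared per kilobase of exon (CPM per kb, with exon lengths from GENCODE 29, since the annotation used for counting is not given in the sources used here). TXN was the highest, at 159 ± 9.01 CPM per kb in the controls and 177 ± 9.97 in co-culture (SD, n = 3 each). TXN2 and MLX followed at 32.4 to 38.1 and 30.4 to 36.1 CPM per kb over the 6 libraries. These ranges overlapped, but TXN2 was above MLX within each library. ARRDC1 had 15.4 to 19.2, ARRDC4 9.49 to 15.3, MLXIP 8.99 to 10.9 and TXNIP 7.1 to 14.8 CPM per kb. The ranges of ARRDC4, MLXIP and TXNIP overlapped one another. Within each library ARRDC4 was above TXNIP, though only at 14.9 against 14.8 CPM per kb in control 1. MLXIP was below TXNIP in control 1, at 8.99 against 14.8, and above it in the other libraries. It was above ARRDC4 in control 3 only, at 10.9 against 9.49, so the place of MLXIP differed between libraries. ARRDC3, ARRDC2 and MLXIPL were the lowest. ARRDC3 and ARRDC2 overlapped in the controls, at 2.4 ± 0.18 and 2.5 ± 0.335 CPM per kb, whereas in co-culture ARRDC3 had 4.42 ± 0.388 against 3.11 ± 0.358 for ARRDC2. MLXIPL had 1.61 ± 0.459 in the controls and 2.10 ± 0.222 in co-culture.

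Of 84 genes in 5 related lists, 77 had enough reads to be tested, and 5 had an edgeR adjusted p under 0.05, 2 higher and 3 lower. That is close to the 4.83% of all tested genes called in the same fit. The median log2 fold change of the 77 genes was 0.04, against 0.00 over all tested genes. In the list of thioredoxin reductases and enzymes that depend on thioredoxin (17 tested), TXNRD2 fell and the other 16 did not pass. TXNRD2, the mitochondrial thioredoxin reductase, had 32, 33.4 and 33.1 CPM in the controls and 21.8, 20.9 and 24.8 CPM in co-culture. The groups of TXNRD2 did not overlap, as was true of 6 of the 17 tested list genes and 29.3% of all tested genes. The log2 fold change of TXNRD2 was -0.54 (SE 0.08, edgeR adjusted p 0.00669). The cytosolic reductase TXNRD1 stood at 219 ± 19.4 and 222 ± 1.14 CPM (SD, n = 3 each), with a log2 fold change of 0.02 (95% interval -0.13 to 0.17).

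Of 15 tested genes of the list of glucose-responsive targets, 2 rose, 0 fell and 13 did not pass, where 2.66% of all tested genes rose and 2.17% fell. The median log2 fold change of the list was 0.20. KLF10, a Krüppel-like factor induced by glucose and by TGF-beta, had 37.7, 26.2 and 25.5 CPM in the controls and 54.4, 50.6 and 49.6 CPM in co-culture, with an edgeR adjusted p of 0.0148 (difference 0.79 on the log2 scale, SE 0.13). ACLY, which makes cytosolic acetyl-CoA for lipid synthesis, had 574, 586 and 614 against 709, 698 and 774 CPM (edgeR adjusted p 0.0314, difference 0.30 on the log2 scale, SE 0.07). For KLF10 and ACLY alike every co-culture library exceeded every control. Groups did not overlap in 9 of the 15 tested genes of the list, against 29.3% of all tested genes. The list holds genes of lipid synthesis that other pathways also control. At an unadjusted p under 0.05 there were 9 of the 15 genes, against 23.2% of all tested genes. That count was 4 without control 2, and 6 without co-culture library 2, without co-culture library 3 or with the strand class. Without control 1, 10 of the 15 were higher at an edgeR adjusted p under 0.05, against 20.8% of all genes called there, and without control 2, co-culture library 1 or co-culture library 2 there were 0.

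In the list of factors that share MAX or MLX as partner (10 tested), MAX and MXD4 fell and the other 8 did not pass, where 2.17% of all tested genes fell. MAX, the obligate partner of MYC, had 53.4, 52.5 and 57.4 CPM in the controls and 47.5, 39.9 and 39.6 CPM in co-culture (edgeR adjusted p 0.0338, difference -0.37 on the log2 scale, SE 0.08). MXD4, a MAX-binding repressor, had 44.8, 44.0 and 43.8 against 36, 33.8 and 38 CPM (edgeR adjusted p 0.0359, difference -0.30 on the log2 scale, SE 0.07). The arrestin relatives and ubiquitin partners (18 tested) and the thioredoxin-fold relatives (17 tested) had 0 genes past the threshold in edgeR, in DESeq2 and in limma-voom. At an unadjusted edgeR p under 0.05 they held 7 and 3 genes, against 5 and 2 in DESeq2 and 7 and 3 in limma-voom, and 23.2% of all tested genes in edgeR. By the same edgeR measure the MAX or MLX partner list held 5 of 10 genes. The list of thioredoxin reductases and thioredoxin-dependent enzymes held 2 of 17. Without control 1, where 20.8% of all genes were called, edgeR called 6 genes of the MAX or MLX partner list (2 higher, 4 lower), 3 of the arrestin relatives (2 higher, 1 lower) and 2 of the thioredoxin-fold relatives (1 higher, 1 lower).

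**Figure D5:**
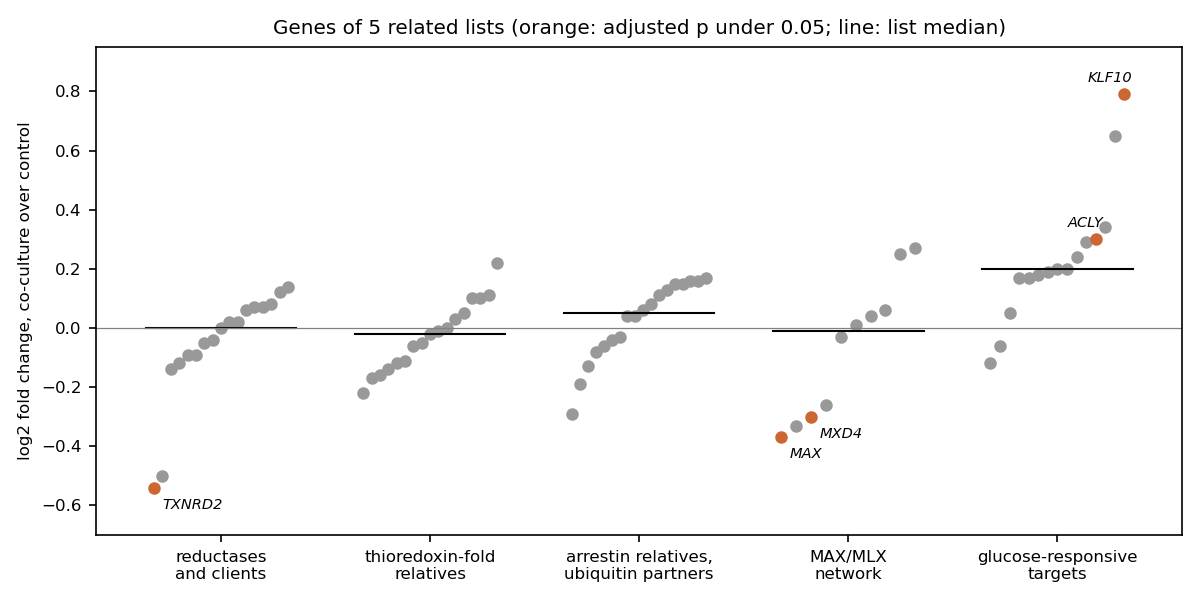
Log2 fold change of co-culture over control (vertical axis) of the 77 tested genes in 5 related lists, in rising order within each list; orange marks an adjusted p under 0.05 and the black line the list median. KLF10 at 0.79 and ACLY at 0.30 lie above 0, and TXNRD2 at -0.54, MAX at -0.37 and MXD4 at -0.30 below.

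Without control 1, TXNRD2, MAX, MXD4, KLF10 and ACLY stood at -0.55, -0.38, -0.29, 0.99 and 0.28 on the log2 scale (edgeR adjusted p 6.21e-08 to 0.00746). The 5 list genes kept their calls in 8 to 10 of the 14 alternatives, against 14 for ARRDC3. With the strand class as a term TXNRD2, MAX, MXD4, KLF10 and ACLY stood at -0.59, -0.20, -0.30, 0.87 and 0.26 on the log2 scale and missed the threshold (edgeR adjusted p 0.159 to 0.466). TXNRD2 also missed it when co-culture library 1 or 2 or control 2 was left out, at -0.51, -0.49 and -0.53 (edgeR adjusted p 0.0542, 0.0657 and 0.0602), and KLF10 without the same libraries at 0.76, 0.81 and 0.71 (edgeR adjusted p 0.084, 0.0781 and 0.0787). MXD4 and ACLY missed it without any of the 3 co-culture libraries or control 2, at -0.34 to -0.25 and 0.25 to 0.33. MAX missed it without co-culture library 2 or 3 or control 2 or 3, at -0.39 to -0.32. With the replicate number as a block MAX, MXD4 and ACLY stood at -0.37, -0.30 and 0.30 (edgeR adjusted p 0.0896, 0.108 and 0.0815).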

How the data were processed

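Per the labels' protocols, RNA came from a TriPure extraction and was made into stranded mRNA libraries (Illumina). The submitters' processing notes name FastQC, STAR 2.53a and the build hg18, and the annotation release is not given in the sources used here. The authors deposited raw read counts per gene for each library in 3 columns, for both strands together, for the forward and for the reverse strand. The reverse-strand counts were used, and the 4 summary lines, were left out: unmapped reads were 1.22% to 1.67% of the total, reads in no gene 14.8% to 17.7%, multimapping reads 6.48% to 8.42% and ambiguous reads 0.835% to 1.01%.

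Genes were filtered with filterByExpr (minimum count 10; 14582 of 23686 kept), scaled by TMM and tested in edgeR 4.0.16 (R 4.3.3) with robust quasi-likelihood fits, group as the only term and Benjamini-Hochberg adjustment over all tested genes at 0.05. The SE was derived from the F statistic as |log2 fold change|/√F. At these depths 1 read was worth 0.0279 to 0.0521 CPM. DESeq2 1.42.0, limma-voom (limma 3.58.1), other scalings, no filter, unstranded counts, a replicate block, the strand class and leaving out each library were alternatives. The strand class separates libraries under 0.5% in the median forward share over 4931 genes with at least 1000 reads. Chi-square per degree of freedom within groups was 4.56 to 17.7, above sampling noise. The fit was also run on simulated counts that held neither a strand class nor a deviating library, so that run says nothing about either.

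Members, lists and alternatives were chosen with earlier results of these data known. Named are the 10 genes, list genes past the threshold (at most 5 per list), and the 5 genes with a mean of at least 5 CPM nearest to TXNIP. Symbols are those of the files, and 3 list genes (VPS26C, MYCL and G6PC1) were found under an older symbol.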

Additional observations from a re-analysis of the deposited data

How the results depend on the processing

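The number of the 10 genes past the threshold was 1 in the main edgeR fit and in every alternative but the fit without control 1, and it ran from 1 to 4 when each library was left out. Of the 77 tested list genes, 5 passed in the main fit and 2 with the replicate block. With the strand class as a term 0 passed in edgeR, with 11 at an unadjusted p under 0.05, while DESeq2 called 6 and limma-voom 5 in fits without that term. The range was 0 without control 2 or co-culture library 2 to 23 without control 1. Over all genes, 704 were called in the main fit, 164 with the replicate block, 29 with the strand class, and 65 to 3069 when a library was left out. Total-count scaling gave 310 higher and 572 lower genes against 388 and 316, and shifted the median of all genes by -0.033 (log2).

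Same-numbered libraries of the groups did not deviate together (correlations of -0.04, -0.09 and -0.09 across genes). With 3 libraries per group these values cannot decide whether the number pairs the libraries. Under the replicate block ARRDC3 stood at 0.88 (edgeR adjusted p 0.0184). MLXIP changed sign with the strand class (-0.01) and ran from -0.01 to 0.13 with a library left out. The leave-one-out ranges of ARRDC1 (-0.13 to 0.03), HELZ2 (-0.54 to 0.01), SULF1 (-0.51 to 0.18) and RGS16 (-0.41 to 0.08) also crossed 0, each without control 1. None of these 5 genes was called in any fit. The cause of these shifts was not tested. ARRDC2, ARRDC3 and MLXIPL had 107 to 597 reads per library, which limits what can be seen of their changes.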
